A study of Mus musculus with 6 samples.

Results

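Cytosolic ribosomal protein genes were compared between mouse livers transduced with AAV8-Nfkbiz and livers transduced with AAV8-luciferase. The genes were chosen by symbol: Rpl or Rps followed directly by a digit, together with Rpsa, Rplp0, Rplp1 and Rplp2, without the Rps6k kinases and without symbols containing -ps. A probe set, the group of short probes that reads one transcript on this array, was used only where the platform annotation gave it exactly 1 symbol. This rule found 50 genes on 106 probe sets among 18193 genes and 45037 probe sets, 24 genes with an Rps symbol or Rpsa and 26 with an Rpl or Rplp symbol. Of the 50 genes, 47 lay above the filter on dim probe sets, an intensity of 47.4 on average over the 6 arrays, and were among the 13312 genes tested. A further 110 probe sets list a ribosomal protein gene together with other symbols, and are given only in total. Because of this, 31 other genes that the symbols would admit, Rpl5, Rplp1 and Rpl3 among them, have no probe set of their own here.

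All mice were C57BL/6 and received the vector intravenously; AAV8 is a serotype of adeno-associated virus with strong uptake in liver. The control vector expressed luciferase and the other expressed Nfkbiz, which encodes the atypical nuclear IκB protein IκBζ. After 4 weeks both groups were kept for 4 weeks on CDAHFD, a high-fat diet low in choline with a defined amino acid mix that models nonalcoholic fatty liver disease, and whole liver was taken after perfusion with buffered saline. The design has 3 arrays per group, 1 per liver sample, and no group without diet or without vector. Age, sex, the promoter of the vectors, feeding state and time of day are not stated in the labels. The labels give the arrays as separate samples and do not say more of the animals, so a p-value here reflects only the spread among these 6 samples, which may be technical.

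A ribosome consists of a small 40S and a large 60S subunit, each built from ribosomal RNA and many small, mostly basic proteins that are needed mostly in equal numbers. In mammals the mRNAs of these proteins start with a cytosine followed by a run of pyrimidines, the 5′ terminal oligopyrimidine (TOP) motif. Through this motif the kinase complex mTORC1 and the RNA-binding protein LARP1 set their translation and stability together. The hepatocyte makes plasma proteins in bulk and carries a dense rough endoplasmic reticulum, so ribosomal protein mRNAs are abundant in liver.

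The TOP motif can be read in the start-site windows of 8 of the genes, which are printed here because they show what these mRNAs share. RefSeq start sites of GRCm38.p6 were found for 44 of the 50 genes, in 52 windows of 300 bases, 250 before and 50 after the annotated start. Rpl7, Rpl8, Rps14, Rps20, Rps29 and Rps4l were not matched. A C at the annotated start with at least 4 C or T bases after it stood in 8 of the 52 windows (15.4%) and in 2.51% of all 32851 windows. Each line gives the 10 bases before and the 20 bases from the start, with the pyrimidine run in capitals.
Rps6: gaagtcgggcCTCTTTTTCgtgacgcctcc
Rps10: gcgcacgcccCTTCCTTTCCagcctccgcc
Rps18: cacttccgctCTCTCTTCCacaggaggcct
Rps27: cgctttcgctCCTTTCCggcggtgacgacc
Rpl14: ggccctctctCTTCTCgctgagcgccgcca
Rpl35: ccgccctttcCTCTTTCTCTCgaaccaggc
Rpl38: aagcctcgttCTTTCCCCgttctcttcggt
Rplp2: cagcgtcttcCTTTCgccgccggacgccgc
They lie at chr4:86857348-86857377 (minus strand) for Rps6, chr17:27635225-27635254 (minus) for Rps10, chr17:33955646-33955675 (minus) for Rps18 and chr3:90213629-90213658 (minus) for Rps27. Those of the large subunit lie at chr9:120571507-120571536 (plus) for Rpl14, chr2:39005112-39005141 (minus) for Rpl35, chr11:114668570-114668599 (plus) for Rpl38 and chr7:141447641-141447670 (plus) for Rplp2. An annotated start that is off by a few bases hides the motif, so the other windows say nothing about it. The 8 genes had a median log2 difference between the groups of 0.23, and the 33 other matched genes that were tested had 0.25. Because the 33 may carry the motif as well, these medians do not compare genes with and without it.

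The windows of the 3 genes below are printed because these genes have some of the smallest p-values of the set and values described below, from 70 bases before to 30 bases from the annotated start. Capitals mark the letters of 4 motifs that were searched on both strands: CCGGAAG, the core bound by ETS factors, CTTTCC, AAGATGGC, which resembles the site of YY1, and TATAAA.
Rpl11: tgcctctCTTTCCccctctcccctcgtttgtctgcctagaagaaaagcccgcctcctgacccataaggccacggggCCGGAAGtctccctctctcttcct
Rps7: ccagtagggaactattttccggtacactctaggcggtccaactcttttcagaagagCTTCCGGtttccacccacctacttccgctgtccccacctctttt
Rplp0: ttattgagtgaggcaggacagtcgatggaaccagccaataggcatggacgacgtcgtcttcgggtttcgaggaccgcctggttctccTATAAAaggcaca
They lie at chr4:136053364-136053463 (minus strand) for Rpl11, chr12:28635924-28636023 (minus) for Rps7 and chr5:115559397-115559496 (plus) for Rplp0. CCGGAAG stood in 21 of the 52 windows (40.4%) against 8.86% of all windows of this length. CTTTCC stood in 24 (46.2%) against 26.6%, AAGATGGC in 4 (7.69%) against 2.75%, and TATAAA in 6 (11.5%) against 13.6%. A window can hold several motifs, and CTTTCC and CCGGAAG can share their CC. These matches describe the letters only.

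The arrays were checked first. Of 3 Nfkbiz probe sets, that with the largest difference read 221, 230 and 180 under the luciferase vector against 4424, 4073 and 2006 under the Nfkbiz vector, in the direction of the labels. The groups overlapped on the 2 others. The arrays reached 52443 to 67210 at the brightest probe set and had trimmed means of 495.4 to 496.5, as scaled by the authors. Over all genes the median log2 difference was -0.016, and 30 of 13312 genes passed limma's test at an adjusted p under 0.05. The hepatocyte markers Alb, Apoa1, Ttr and the others measured of that list were above the filter, with a summed intensity of 240856 to 285023 in the luciferase and 230242 to 277478 in the Nfkbiz group.

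Most ribosomal protein genes read slightly higher in the Nfkbiz livers, and 0 of 47 passed the limma threshold, an adjusted p under 0.05 with all 13312 genes in the adjustment. Of the 47, 42 had a positive difference and 5 a negative one, where 47.8% of all genes tested were positive. The median log2 difference was 0.23, a 1.18-fold higher intensity, with quartiles of 0.15 and 0.31. In 25 of the 47 genes every Nfkbiz array read above every luciferase array, and the reverse was seen in 0, against 8% and 10% of all genes tested. The genes shared a pattern over the arrays, the second Nfkbiz array being the highest for 37 of the 47. Counts over these genes are therefore not independent of each other. At an unadjusted p under 0.05 in limma there were 17 genes, all higher, against 5.03% of all genes higher and 7% lower. After adjustment 0.0676% of all genes passed as higher and 0.158% as lower, and the smallest adjusted p of a ribosomal protein gene was 0.194. These counts depend on the scale. After median centring of the arrays the 17 became 4, against 4.61% of all genes, and the 25 became 16, against 7.17%. The median difference was then 0.27. After quantile normalization the 17 became 13, against 6.26% of all genes, and the 25 became 20, against 9.38%. Cyclic loess normalization gave 13, against 6.07%, and 24, against 9.12%. The number of positive differences was 42 under each of these scalings, quantile and cyclic loess normalization included.

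**Figure D1:**
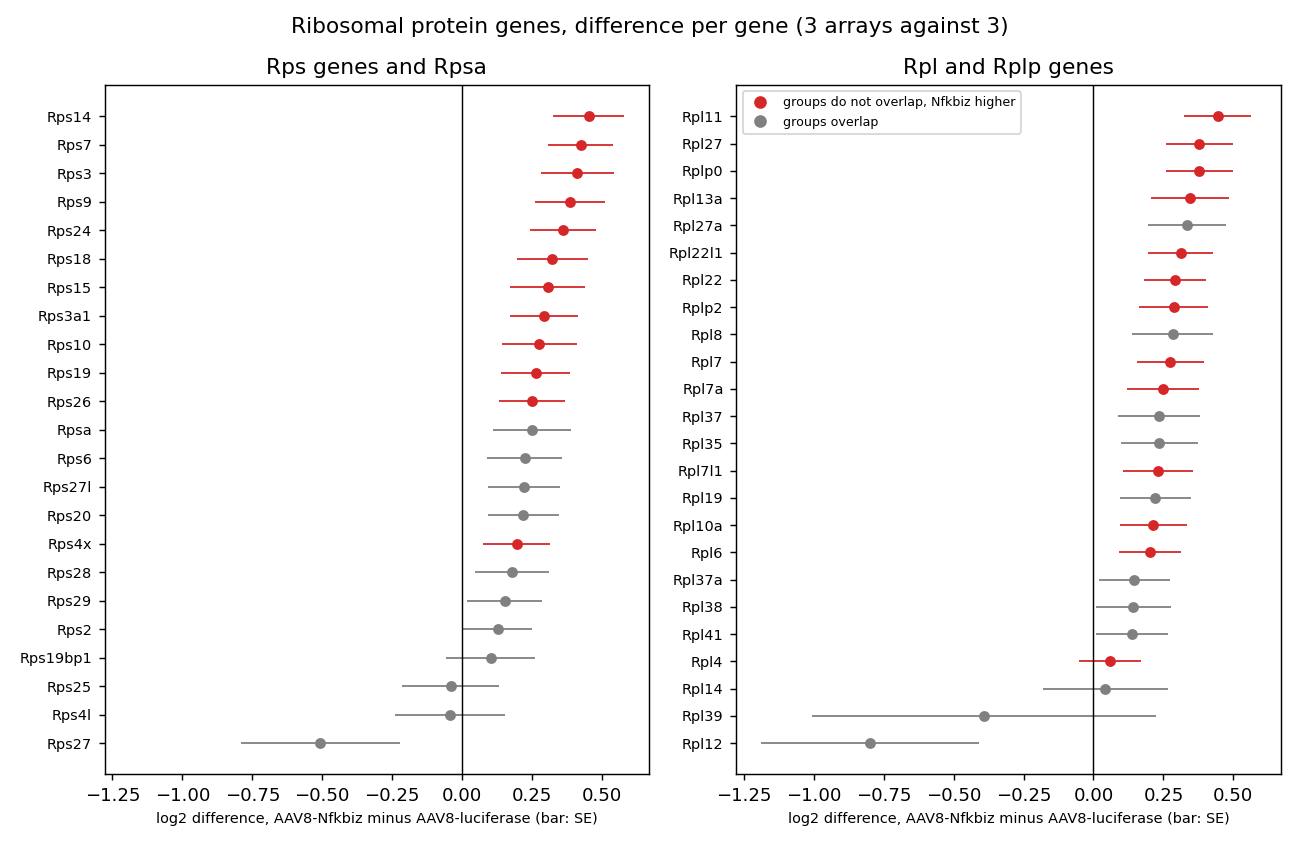
Log2 difference of each of the 47 ribosomal protein genes tested, AAV8-Nfkbiz minus AAV8-luciferase, with limma's standard error as the bar, genes with an Rps symbol and Rpsa on the left, genes with an Rpl or Rplp symbol on the right. Red points are the 25 genes whose arrays do not overlap between the groups, and 42 of the 47 points lie to the right of 0.

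By subunit, the 23 tested genes with an Rps symbol or Rpsa include Rps19bp1, which is not a ribosomal protein gene. The 22 others, those of the small subunit, had a median log2 difference of 0.25, with 19 positive, 12 not overlapping between the groups and 8 at an unadjusted p under 0.05. The 24 large subunit genes had a median of 0.23, with 22 positive, 13 not overlapping and 9 at an unadjusted p under 0.05. The genes in these counts were all higher in the Nfkbiz group. Of all genes tested, 8% were higher without overlap and 5.03% were higher at an unadjusted p under 0.05. Without the second Nfkbiz array the large subunit median was 0.15, and that of the 23 genes with an Rps symbol or Rpsa was 0.20. With the mean of each gene's probe sets these medians were 0.23 and 0.16. The difference between the subunits was not tested.

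In the small subunit, Rps14, a protein of the 40S platform, had the largest difference. It read 25649, 24647 and 29315 in the luciferase group against 36136, 38973 and 33759.8 in the Nfkbiz group, which is 0.45 ± 0.13 on the log2 scale (SE from limma, adjusted p = 0.206). Its lowest Nfkbiz array lay above its highest luciferase array. A second probe set of Rps14 gave 0.60 ± 0.13, again without overlap, with a limma adjusted p of 0.154 over the 27022 probe sets tested. Rps7, which like Rpl11 can bind the p53 ligase MDM2, read 17085, 16978 and 18122 against 24231, 24204 and 21639 (0.42 ± 0.12, limma adjusted p = 0.196), and its other probe set gave 0.56 ± 0.12. The Rps7 groups did not overlap on either probe set.

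Rps3, which sits at the mRNA entry channel, read 13568, 13533 and 14421 against 17902, 21201 and 16448 (0.41 ± 0.13, limma adjusted p = 0.252). Rps9 read 13544, 13718 and 11652 against 16509, 18448 and 15842 (0.39 ± 0.13, limma adjusted p = 0.271). On the probe set used neither gene overlapped between the groups, and the second Nfkbiz array was the highest in both. Another Rps9 probe set gave 0.33 ± 0.14 and another of Rps3, a dim one, gave 0.26 ± 0.19, both with overlap. Each of these genes also has a dim probe set with a negative difference and overlapping groups, at -0.54 ± 0.34 for Rps3 and -0.43 ± 0.38 for Rps9.

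Rps24 and Rps18 followed. Rps24 read 17295, 16544 and 17498 against 21647, 23804 and 20612 (0.36 ± 0.12, limma adjusted p = 0.268) and Rps18 read 14930.3, 16177 and 15619.9 against 20146, 21455 and 17064 (0.32 ± 0.13, limma adjusted p = 0.352). Neither gene overlapped between the groups on the probe set used. Of the other Rps18 probe sets above the filter, 1 gave 0.28 ± 0.13 without overlap and 1 gave 0.25 ± 0.14 with overlap. Rps24 was the 1 gene with probe sets of opposite difference, both over 0.5 in size: one gave 0.57 ± 0.16 and a dim one, at 121 ± 45.3 against 58.0 ± 12.3 (SD, n = 3 per group), gave -1.01 ± 0.40 (limma adjusted p = 0.431). The groups did not overlap on either of these 2 Rps24 probe sets. The dim one is the 1 lower probe set in the counts over probe sets below.

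Rps6, the ribosomal protein that the S6 kinases phosphorylate downstream of mTORC1, read 1302, 1252 and 1482 against 1660.0, 1626 and 1426. The groups overlapped through the third Nfkbiz array (0.22 ± 0.13, limma adjusted p = 0.539). Rpsa, the 40S protein also known as the laminin receptor, read 12021, 10686 and 14469.5 against 14564, 15644 and 13718, with an overlap through the third luciferase array (0.25 ± 0.14, limma adjusted p = 0.511). Without the second luciferase array the Rpsa difference was 0.15, and with the mean of its probe sets, one of them below the filter, it was 0.66. Rps19, the gene most often mutated in Diamond-Blackfan anaemia, read 11184, 10414 and 12071 against 13084, 14674 and 12656 without overlap (0.26 ± 0.12, limma adjusted p = 0.43).

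In the large subunit, Rpl11 had the smallest p of all the ribosomal protein genes. Rpl11 is part of the 5S ribonucleoprotein particle, which binds MDM2 when ribosome assembly fails. It read 12434, 12004 and 13961 in the luciferase group against 16896, 18595 and 16717 in the Nfkbiz group, a 1.36-fold higher intensity (0.44 ± 0.12, limma adjusted p = 0.194). The groups were separate, with the highest luciferase array below the lowest Nfkbiz array.

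The P stalk, the flexible arm of the 60S subunit that recruits the translational GTPases, is read here by Rplp0, its base, and Rplp2, while Rplp1 has no probe set of its own. Rplp0 read 20398, 20992 and 21502 against 27119, 29657 and 25105 (0.38 ± 0.12, limma adjusted p = 0.255). Rplp2 read 20243, 19312 and 22461 against 23603, 27265 and 24799 (0.29 ± 0.12, limma adjusted p = 0.39). Both stalk genes were without overlap, and the second Nfkbiz array was the highest in both. Rplp0 is often used as a reference gene in quantitative PCR.

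Rpl27 read 13227, 13069 and 12961 against 16628, 18969 and 15599, with little spread in the luciferase group (0.38 ± 0.12, limma adjusted p = 0.259). Rpl13a, a 60S protein that is also known to leave the ribosome and silence inflammatory mRNAs in interferon-treated myeloid cells, read 23214, 22937 and 28548 against 30504, 35329.5 and 28933 (0.35 ± 0.14, limma adjusted p = 0.359). Luciferase array 3 came close to Nfkbiz array 3 for this gene. All 4 probe sets of Rpl13a were positive, between 0.35 and 0.70, and that with the largest difference read 2575 ± 637 against 4093 ± 97.5 (SD, n = 3 per group).

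Not every gene had a difference of this size. Rpl4, which lines the peptide exit tunnel, read 17408, 17445 and 16764 against 17773, 17629.7 and 18413, which is 0.060 ± 0.11 on the log2 scale (limma adjusted p = 0.866). Its groups did not overlap although they differed by less than the standard error, and its sign turned to -0.044 after quantile and -0.030 after cyclic loess normalization. Rps2, Rpl41, Rpl38, Rpl37a, Rps29 and Rps28 lay between 0.13 and 0.18 with overlapping groups. Another 13 genes lay between 0.20 (Rpl6) and 0.33 (Rpl27a). Of these, Rps3a1, Rps10, Rps15, Rps26, Rpl6, Rpl7a and Rpl10a did not overlap, and Rps20, Rpl8, Rpl19, Rpl27a, Rpl35 and Rpl37 did.

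Several ribosomal proteins have a paralog with its own gene. Rpl22l1 read 8745, 8098 and 8525 against 10358, 11372 and 9807 (0.31 ± 0.12, limma adjusted p = 0.332), and its partner Rpl22 read 14320.0, 13884 and 14203 against 16502, 17568 and 17882 (0.29 ± 0.11, limma adjusted p = 0.337). Both genes of this pair were higher without overlap on the probe set used. Of the other Rpl22 probe sets, 1 gave 0.45 ± 0.14 without overlap and 1 gave 0.037 ± 0.19 with overlap. Rpl7l1, whose product is a Rpl7 relative, read 1556, 1547 and 1556 against 1788, 2010.2 and 1677 (0.23 ± 0.13, limma adjusted p = 0.504). Rpl7 read 14187, 15734 and 13707 against 17719, 18516 and 16501 (0.27 ± 0.12, limma adjusted p = 0.397). Neither overlapped on the probe set used. The p53-inducible Rps27l read 16329, 17469 and 19288 against 20226, 22791 and 18954 (0.22 ± 0.13, limma adjusted p = 0.523), with an overlap through array 3 of both groups.

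The other pairs differed in what could be read. Rps4x, on the X chromosome, read 20231, 21255 and 18813 against 23162, 24318 and 21566 without overlap (0.20 ± 0.12, limma adjusted p = 0.552). Its relative Rps4l read 1373, 1110.4 and 1031 against 847, 1203 and 1407, in no order (-0.044 ± 0.20, limma adjusted p = 0.953). Rpl39l, Rpl3l and the single-symbol probe set of Rps16 were below the filter, at 4.76 to 114, 6.08 to 43.2 and 1.29 to 1.90, and were not tested. Rps19bp1, which the symbol rule admits, encodes a binding partner of the Rps19 protein and not a ribosomal protein, and gave 0.10 ± 0.16 with overlapping groups.

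The genes that did not lean upward were mainly those with dim probe sets. Of the 41 genes with a mean intensity of at least 1000, a value chosen after the data were seen, 40 were positive, with a median of 0.25, and Rps4l was the exception. The 6 below it, Rpl12, Rpl14, Rpl39, Rps25, Rps27 and Rps19bp1, lay between -0.80 and 0.10, and 5 of them are also listed on probe sets with several symbols. Rpl12 had the most negative difference, at 104, 167 and 129.9 against 57.5, 125 and 59.5, with overlap (-0.80 ± 0.39, limma adjusted p = 0.449). Rps27 read 445, 439 and 618 against 246, 307 and 556, with overlap (-0.51 ± 0.28, limma adjusted p = 0.513). Leaving out Nfkbiz array 1 gave -0.26 for Rps27, and leaving out Nfkbiz array 3 gave -0.85. Rpl39 read 254, 50.6 and 407 against 129, 143 and 125 (-0.39 ± 0.61, limma adjusted p = 0.842), a spread that covers the difference. Rps25 had a difference of -0.041 ± 0.17, which turned to 0.024 after quantile and 0.022 after cyclic loess normalization. Dim probe sets also varied more, with a median standard deviation within the luciferase group of 0.25 on the log2 scale against 0.10 for those of at least 1000. Within the Nfkbiz group the contrast was smaller, at 0.19 against 0.12.

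**Figure D2:**
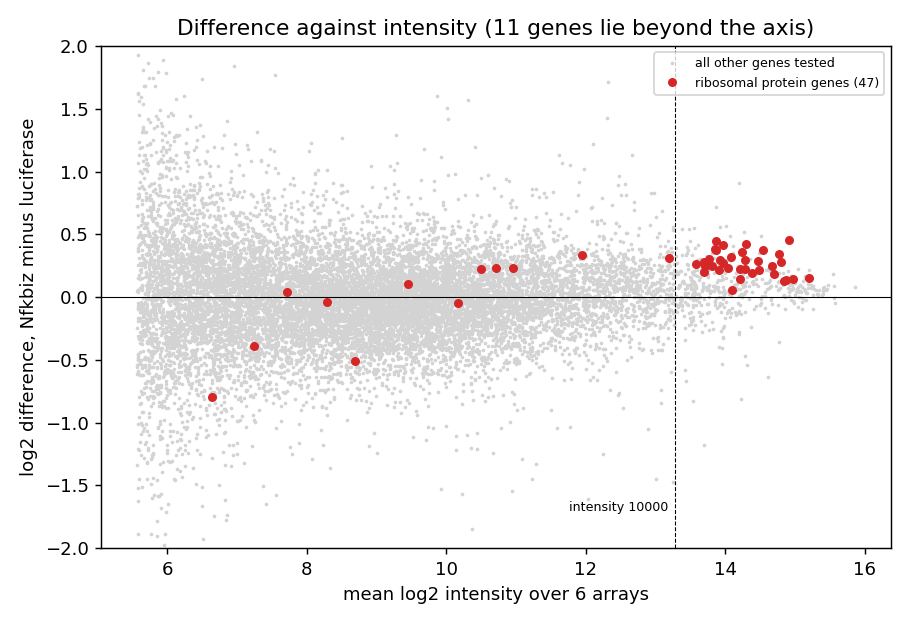
Log2 difference, AAV8-Nfkbiz minus AAV8-luciferase, against the mean log2 intensity over the 6 arrays for all 13312 genes tested, with the 47 ribosomal protein genes in red and a dashed line at an intensity of 10000. The 35 ribosomal protein genes right of the line are all above 0, and 11 genes lie beyond the vertical axis.

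Ribosomal protein probe sets are among the brightest of these arrays. Of the 47 genes, 35 had a mean intensity of at least 10000, and all 35 were positive, with a median of 0.26 and 23 (65.7%) without overlap. Among the 442 other genes as bright, the median was 0.064, 69.9% were positive and 6.11% were higher without overlap. After quantile normalization, which gives all arrays one distribution of intensities, the median was 0.17 for the 35 and -0.016 for the 442. After cyclic loess it was 0.17 and -0.034. No test was made of the set against other genes.

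Across probe sets the picture was similar, apart from the dim ones. Of the 106 single-symbol probe sets, 95 were above the filter, 83 of them positive, with a median of 0.25, against 47% positive among all probe sets. Of the 77 with a mean intensity of at least 1000, 76 were positive. Of the 18 dimmer ones above the filter, 7 were positive and 11 negative, with a median of -0.031 and 0 higher without overlap. No overlap between the groups was seen for 41 probe sets with the Nfkbiz group higher and 1 lower, against 7.03% and 9.69% of all probe sets. An unadjusted p under 0.05 was seen for 33 higher and 1 lower, against 4.14% and 6.47%. An adjusted p under 0.05 in limma was reached by 0 of the 95, against 0.0185% of all probe sets higher and 0.0518% lower. In 13 of the 20 genes with several probe sets above the filter all of them had one sign. Of the probe sets used to represent a gene, 32 of 47 have a name with _a_, _s_ or _x_. An _a_ marks probes shared between transcripts of the same gene, and _s_ or _x_ marks probes shared with other genes or related sequences. For those with _s_ or _x_, 13 of them _x_, the signal of related copies cannot be told apart from that of the gene named. For the others the name does not settle whether related copies add to the signal. The 110 probe sets with several symbols, not assigned to a gene, were similar: 101 were above the filter, 95 of them positive with a median of 0.21, and 43 did not overlap between the groups, all higher.

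The arrays within a group were not alike. Relative to each gene's luciferase mean, the median over the 47 genes was -0.028, -0.035 and 0.060 for luciferase arrays 1, 2 and 3 and 0.21, 0.36 and 0.13 for Nfkbiz arrays 1, 2 and 3. All 3 Nfkbiz arrays thus lay above all 3 luciferase arrays, the closest being array 3 of both groups. The second Nfkbiz array was the highest of the 6 for 37 of the 47 genes. Without it the median difference was 0.17, and 8 genes in place of 17 had an unadjusted p under 0.05 and a positive difference, against 3.89% of all genes. Over all genes the same medians lay between -0.048 and 0.046, with the second Nfkbiz array the lowest.

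**Figure D3:**
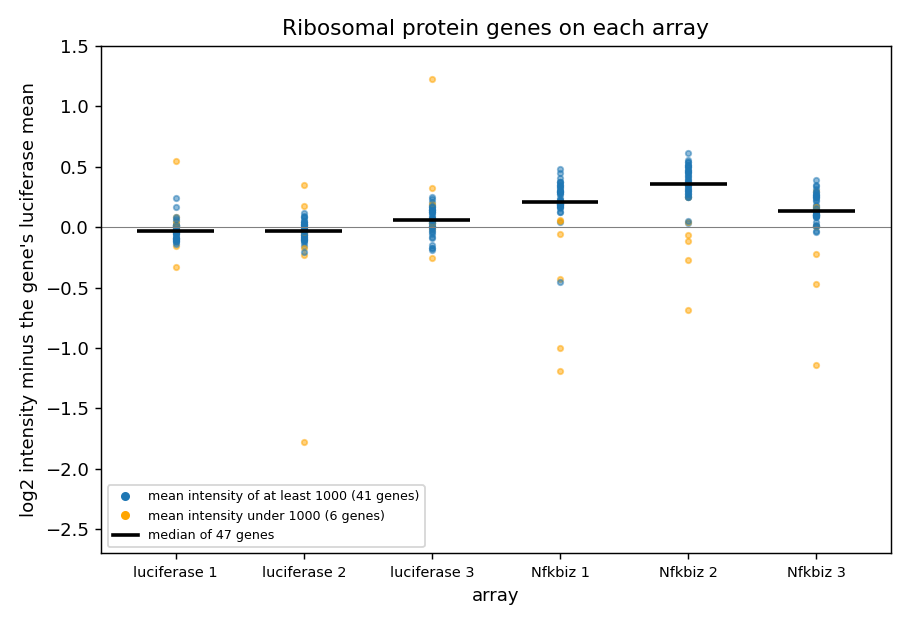
Log2 intensity of each of the 47 ribosomal protein genes on each array, minus that gene's mean over the luciferase arrays, with black bars at the array medians. The luciferase medians are -0.028, -0.035 and 0.060 and the Nfkbiz medians 0.21, 0.36 and 0.13, and the orange points, genes with a mean intensity under 1000, scatter most.

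Other genes of the translation machinery also had mostly positive differences. Of 76 mitochondrial ribosomal protein genes, which are encoded in the nucleus but serve the separate mitochondrial ribosome, 65 were positive (47.8% of all genes), with a median of 0.17, and 20 were higher and 1 lower without overlap (8% and 10% of all genes). Of 17 further TOP mRNAs, 15 were positive, with a median of 0.16. Eef1b2, a nucleotide exchange factor of elongation, read 10621, 10583 and 10604 against 14183, 14686 and 12956 without overlap (0.39 ± 0.11, limma adjusted p = 0.219). Eif3e (0.44 ± 0.14), Eif3h (0.38 ± 0.13) and Btf3, a subunit of the nascent polypeptide-associated complex (0.41 ± 0.15), did not overlap either. Fau, whose product is cleaved into the 40S protein eS30, overlapped (0.19 ± 0.13), and the abundant Eef1a1 (0.073 ± 0.13), Tpt1 (0.062 ± 0.12) and Eef2 (-0.042 ± 0.12) were near 0. At an adjusted p under 0.05 in limma 0 genes of either list were called (6 further TOP mRNAs and 12 mitochondrial ribosomal protein genes had an unadjusted p under 0.05, all higher, against 5.03% of all genes), and the differences between lists were not tested.

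Among 43 translation factors 31 were positive, with a median of 0.073, and 10 higher and 1 lower had an unadjusted p under 0.05 (5.03% and 7% of all genes). This list shares genes with that of the further TOP mRNAs, Eef1b2 and Eif3e among them, so their counts are not independent. Eif3k gave 0.36 ± 0.12, and the scaffold gene Eif4g3 read 1259 ± 83.5 against 899.5 ± 114 (SD, n = 3 per group; -0.49 ± 0.14, limma adjusted p = 0.219). Of 80 ribosome biogenesis genes 55 were positive, with a median of 0.12, and 9 higher and 3 lower had an unadjusted p under 0.05. Polr1d, a subunit shared by RNA polymerases I and III, gave 0.45 ± 0.11, the 60S assembly factor gene Nip7 0.52 ± 0.14 and the box C/D snoRNP gene Nop58 0.62 ± 0.20, while the processome gene Utp20 gave -0.73 ± 0.18. None passed, with limma adjusted p-values from 0.182 to 0.271.

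Of 41 genes of mTORC1 and TOP control, 28 were negative, with a median of -0.11, where 52.2% of all genes were negative. At an unadjusted p under 0.05 there were 0 higher and 3 lower, the latter near the 7% of all genes that were lower. Ddit4, a stress-induced inhibitor of mTORC1, read 2094, 1855 and 1611 against 535, 1599 and 742, without overlap but with the second Nfkbiz array near the controls (-1.10 ± 0.32, limma adjusted p = 0.226). Fnip2, a folliculin partner in amino acid sensing, gave -0.55 ± 0.16, Mycn -1.18 ± 0.33 and Larp4b -0.28 ± 0.13. Larp1 read 1981 ± 44.0 against 1733 ± 175 (SD, n = 3 per group; -0.20 ± 0.13, limma adjusted p = 0.572) and Mtor gave -0.098 ± 0.17. Of 20 genes of ribosome stress and quality control, 14 were negative, with a median of -0.095. The p53 regulator gene Mdm4 gave -0.74 ± 0.23, Ascc2 -0.50 ± 0.19, Usp10 -0.32 ± 0.13 and Gcn1 -0.57 ± 0.29. No gene of either list passed the limma threshold, and the second list also had 3 lower and 0 higher at an unadjusted p under 0.05.

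**Figure D4:**
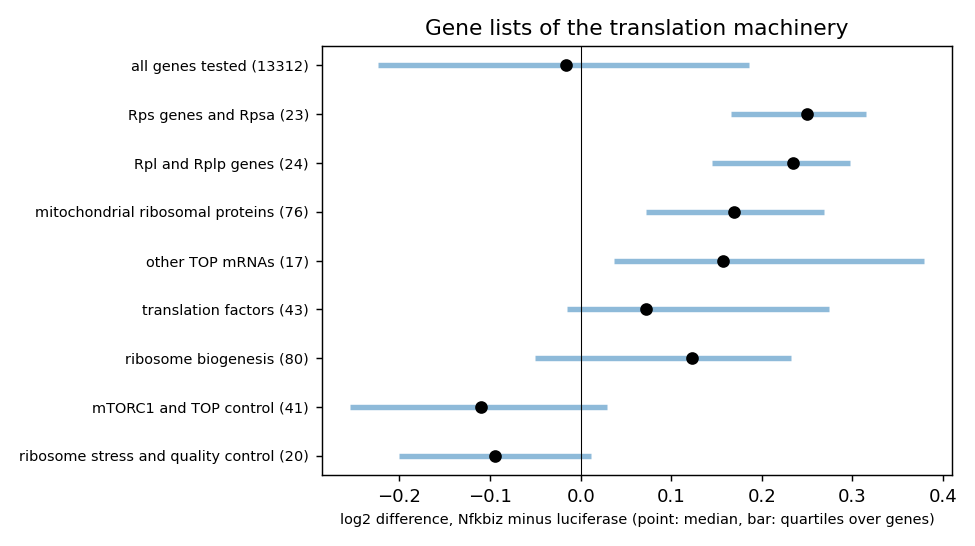
Median log2 difference (point) and quartiles over genes (bar), AAV8-Nfkbiz minus AAV8-luciferase, for all genes tested, ribosomal protein genes by symbol and 6 lists of translation and ribosome genes, with the number of genes in brackets. The medians are 0.25 for Rps genes and Rpsa, 0.23 for Rpl and Rplp genes, 0.17 for mitochondrial ribosomal proteins and -0.11 for mTORC1 and TOP control. The lists of translation factors and other TOP mRNAs share genes.

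Whole liver holds several cell types, and fewer cells of a type and less RNA per cell cannot be told apart in it. Markers of Kupffer cells and other macrophages also read higher: 14 of 17 were positive and 0 passed in limma. At an unadjusted p under 0.05 there were 10, all higher, against 5.03% of all genes higher and 7% lower. Their summed intensity was 43923 to 60493 in the luciferase and 63689 to 80040.5 in the Nfkbiz group. Cd5l had the smallest p (0.83 ± 0.16, limma adjusted p = 0.092), then C1qa (0.59 ± 0.15). Of 11 T and NK cell markers 7 were positive, and Gzma passed (1.77 ± 0.28, limma adjusted p = 0.0427), with a sum of 1311 to 1403 against 1326 to 2249, Cd4 being below the filter. Of 7 B and plasma cell markers 6 were positive, Cd79b (1.19 ± 0.36) and Xbp1 (0.27 ± 0.13) having the smallest p, with a sum of 14704 to 17533 against 17450.4 to 20397. Xbp1, which hepatocytes also express, made up 93.3% to 96.1% of that sum, and the other B and plasma cell markers summed to 684 to 987 against 815 to 1136. Of 6 neutrophil markers 5 were positive, S100a9 (0.84 ± 0.35) and S100a8 (0.85 ± 0.36) among them. Both overlapped between the groups, with the first Nfkbiz array the highest. Camp and Cxcr2 were below the filter. The neutrophil sum was 1147 to 1623 against 1411 to 2999, of which S100a8 made up 29.4% to 50.5%.

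The other marker lists gave other values. Of 10 stellate cell markers 9 were negative, Col1a1 (-0.56 ± 0.21) and Reln (-0.53 ± 0.22) with the smallest p, and their sum was 22898 to 42212 against 23115 to 30710.2. Of 9 endothelial markers 6 were positive, with Clec4g at 0.63 ± 0.21 and Vwf at -1.10 ± 0.34, and their sum was 5516 to 10495 against 8839 to 10936. Of 3 cholangiocyte markers 2 were negative, Krt19 (-0.92 ± 0.50) and Epcam (-0.64 ± 0.25), with Cftr and Krt7 below the filter and a sum of 437 to 749.8 against 343 to 656. Of the erythroid markers only Alas2 was tested (-0.077 ± 0.19), with Hba-a1 and Slc4a1 below the filter and a sum of 1433 to 2307 against 1549 to 1829, of which Alas2 made up 93.6% to 97.9%. Of 9 hepatocyte markers Tat fell (-1.17 ± 0.16, limma adjusted p = 0.0218), 5 were positive, and Hnf4a, a hepatocyte transcription factor, gave -0.35 ± 0.14 with overlapping groups (limma adjusted p = 0.363). At an unadjusted p under 0.05 these 2 hepatocyte markers were lower and 0 were higher, against 7% and 5.03% of all genes. The part of these cell types in the ribosomal protein values was not tested.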

How the data were processed

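Liver RNA (100 ng per sample) was hybridised to 6 Affymetrix 3′ arrays. The authors deposited MAS5 signal intensities on a linear scale, made with MAS5 per the submitters' processing notes, which give no version. The trimmed means show that the arrays share one scaling target. Control probe sets were not used here. Names came from the GEO platform annotation, which listed 35877 of 45037 probe sets, 34945 with 1 symbol, 932 with several and 9160 unlisted. Of those with 1 symbol, 34741 were found in RefSeq (GRCm38.p6), which changed 0 symbols.

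Intensities were log2-transformed with no pseudocount. Each gene was represented by its probe set of highest mean, and genes in the lowest 40% of probe sets were left out. Differences, AAV8-Nfkbiz minus AAV8-luciferase, were fitted with limma 3.58.1 (lmFit and eBayes, trend on) under R 4.3.3, two-sided, with Benjamini-Hochberg adjustment over all 13312 genes. Errors of differences are moderated standard errors, of intensities SD over 3 arrays. The number of arrays limits the precision. On 10 simulated data sets of 13312 genes, limma recovered 63.7% of changes of log2 size 1 and 87.2% of size 2, and 6.32% of its calls were false. The 47 ribosomal protein genes had differences between -0.80 and 0.45, smaller than the simulated ones. The recovery of changes as small as theirs was not measured, so these rates say nothing about the 0 genes that passed.

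Members and lists were chosen with earlier results of these data known. Named genes were the 12 with the smallest p, Rplp0, Rplp1, Rplp2, Rpsa, Rps6, Rpl5 and Rpl11, paralogs with their partners, Rps19bp1, genes with opposed probe sets, and up to 4 genes per list (2 per marker list). Rpl4, Rps25 and other genes named beside these were chosen after their values were seen. Alternatives covered normalization, a pseudocount of 16, filters, the choice of probe set, the variance prior, array weights, a replicate block and leaving out each array. Plots used Python 3.11.15 and matplotlib 3.10.9.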

Additional observations from a re-analysis of the deposited data

How the results depend on the processing

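Under all 18 other settings of the processing 0 ribosomal protein genes passed the adjusted threshold, the smallest adjusted p of the 24 named ones being 0.106, and the median difference stayed positive, with leave-one-out values between 0.17 and 0.29. Genes higher at an unadjusted p under 0.05 numbered 17, but 4 after median centring, 10 of 41 with the most variable probe set, 5 of 22 with probe sets without _s_, _x_ or _a_, 8 without the intensity trend and 10 with the replicate block. Of all genes, 4.61%, 4.36%, 4.69%, 4.44% and 4.92% were higher at that p under these settings, in the same order. Genes lower numbered 1 with the most variable probe set, 1 with array weights and 2 with the replicate block. Leaving out 1 array gave 8 to 19 higher (8 without the second Nfkbiz array, 9 without the first Nfkbiz or the second luciferase array) and 0 to 1 lower (1 without the second luciferase, second Nfkbiz or the third Nfkbiz array). In those fits 3.73% to 6.39% of all genes were higher at that p. The share of all genes lower at that p was taken in the main fit only, at 7%. The counts of lower genes under other settings thus have no share of their own beside them. The 25 genes without overlap became 16 after median centring, 16 of 41 with the most variable probe set and 5 of 22 with probe sets without _s_, _x_ or _a_. Of all genes, 7.17%, 7.77% and 7.41% were separate and higher under these settings, in the same order. The ribosomal protein genes without overlap were 25 to 38 with 1 array left out (36 without the third luciferase and 38 without the third Nfkbiz array), where 11.7% to 14.5% of all genes were also separate and higher. Averaging probe sets gave a median of 0.16 for the Rps genes and Rpsa, which was 0.20 to 0.30 with 1 array left out, where that of the Rpl and Rplp genes was 0.15 to 0.29. Of 417 alternative values of named genes 10 changed sign: with the most variable probe set Rpl7l1 (-0.021), Rps24 (-1.01), Rps3 (-0.54) and Rps9 (-0.43, also with probe sets without _s_, _x_ or _a_), Rpl39 with array weights (0.15) or without the third luciferase array (0.22), Rps4l without the first luciferase (0.076) or first Nfkbiz array (0.16), and Rps19bp1 without the second luciferase array (-0.012). With 1 array left out these genes ranged from -1.28 to 0.22 (Rpl39), -0.20 to 0.16 (Rps4l) and -0.012 to 0.20 (Rps19bp1), Rps27 from -0.85 to -0.26 and Rpsa from 0.15 to 0.37. The cause was not tested. Replicate numbers gave no pairing: deviations of same-numbered arrays correlated at -0.062, 0.070 and -0.032. The set without paralogs and Rps19bp1, chosen after seeing the data, had a median of 0.25.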
